A study of Mus musculus with 3 samples.

Results

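The nuclear genes of the mitochondrial respiratory complexes II to V were followed in mouse granulosa cells through the hours before ovulation. Genes were taken by name: Sdha to Sdhd, Cyc1, Cycs and every symbol, current or former, that starts with Uqcr, Atp5 or Cox followed by a digit from 4 to 8. The rule found 53 of the 24225 genes in the deposited table. Of these, 50 encode parts of the complexes: 4 of complex II, 10 of complex III with cytochrome c, 18 of complex IV and 18 of complex V. The other 3 were matched by a former symbol only and encode no subunit: Dmac2l (formerly Atp5s), Dmac2 (formerly Atp5sl) and Emc8 (formerly Cox4nb). Symbols are given as in the annotation of the GRCm38 assembly, so that Atp5b is the gene now called Atp5f1b.

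Granulosa cells, the support cells of the ovarian follicle, nourish the oocyte and make estradiol. They came from wild-type C57BL/6 female mice between postnatal days 21 and 28. All animals had received 4 IU of equine chorionic gonadotropin (eCG), which makes follicles grow, and the 4 h and 12 h animals had then received 5 IU of hCG, human chorionic gonadotropin, a ligand of the luteinizing hormone receptor that triggers ovulation. The 0 h group was collected before hCG. Cells were released by puncturing follicles, and RNA of 3 mice was prepared at each time. There is 1 messenger RNA library per time, and without replicates no test could be made. The sources used here do not say whether the RNA of the mice was pooled. Every difference below is a difference between 2 libraries.

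Complex II oxidises succinate in the tricarboxylic acid cycle and passes the electrons to ubiquinone, complex III hands them to cytochrome c, and complex IV reduces oxygen. Complexes III and IV pump protons across the inner mitochondrial membrane, and complex V, the ATP synthase, lets them back through a rotating ring to make ATP. In steroid-producing cells such as granulosa cells, mitochondria also house the side-chain cleavage enzyme that turns cholesterol into pregnenolone. Complexes III, IV and V hold some subunits encoded in mitochondrial DNA. None of 8 such mitochondrial genes looked for (Co1, Co2, Co3, Atp6, Atp8, Cytb, Nd1 and Nd4) was in the table, so the values describe the nuclear genes only.

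Levels are in FPKM, sequenced fragments scaled by transcript length and by library size, and can be compared between genes because they are per length. For very short transcripts they also depend on how fragment length was allowed for. Steps between low values put the depth at 13300000, 11900000 and 11600000 fragments at 0, 4 and 12 h. All 10 granulosa cell markers examined were at 1 FPKM or more in every library. The intervals in parentheses are the deposited ones, 2 deposited standard deviations either side of the estimate. They describe the estimate within 1 library and not the spread between mice. The summed FPKM of all genes was 501561, 621365 and 472904 at 0, 4 and 12 h. The members made up 2.449%, 1.819% and 2.383% of it, from sums of 12283, 11300 and 11269 FPKM.

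At least 1 FPKM was recorded for 46, 45 and 46 of the 53 genes at 0, 4 and 12 h. In all, 10 genes were under 5 FPKM in every library, and they are of 2 kinds. Of these, 4 are tissue-restricted forms of complex IV subunits, described further on. The other 6 encode subunits with a place in the enzymes of all tissues: Cycs (cytochrome c, the mobile electron carrier), Cox7c, Atp5g1 and Atp5g2 (which encode subunit c, the proton-carrying ring of ATP synthase), Atp5l and Atp5md (small membrane subunits of ATP synthase). By contrast, none of the 37 remaining common subunits was below 42.27 FPKM in any library.

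The coding sequences of these 6 genes have near-identical copies elsewhere in the genome. The coding sequence of each common subunit was cut into overlapping windows of 50 bases, and each window was looked for in the annotated transcripts of genes at other places. For 5 of the 6 genes 100% of the coding windows were found elsewhere, and for Atp5g1 99.7% were. Among the other 37 common subunits the highest share was 72.9%, for Uqcrb of complex III. The copies are mostly processed pseudogenes, reverse-transcribed remnants of the messenger RNA. Atp5l shared windows with 13 genes, 12 of them pseudogenes, and Cycs with 11, of which 10 are pseudogenes. A read from such a stretch matches several places equally well, and the sources used here do not say how such reads were placed. Only coding sequence was searched. It makes up 315 of the 3123 nt of the Cycs transcript and 408 of the 4715 nt of Atp5g1. Reads from the rest of a transcript may match 1 place only. The levels of these 6 genes are therefore uncertain, and the part that shared sequence played in them was not tested.

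Cox7c, on chr13:86044798-86046795, shows how complete such a copy can be. The opening 60 coding bases of Cox7c (chr13:86046616-86046675, GRCm38, minus strand) are set beside those of its processed pseudogene Gm12338, which lies at chr11:75599763-75599954 on the minus strand. The 2 stretches have 0 differences. Cox5b, a complex IV subunit, shares 61.5% of its windows. Its coding bases 61 to 120 are set beside its copy Gm11273, with the 1 differing base in capitals. They were chosen because they hold a difference. The opening 60 coding bases of Cox5b also have 0 differences from Gm11273, as in Cox7c. The Cox5b stretch shown crosses an intron, between chr1:36691647 and chr1:36692227 on the plus strand.
Cox7c: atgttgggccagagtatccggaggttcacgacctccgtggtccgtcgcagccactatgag
Gm12338: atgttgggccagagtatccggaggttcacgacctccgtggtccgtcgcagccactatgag
Cox5b: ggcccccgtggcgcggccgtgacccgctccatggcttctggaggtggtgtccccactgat
Gm11273: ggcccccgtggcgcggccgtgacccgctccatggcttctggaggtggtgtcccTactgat

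Cox7c itself was recorded at 0.922 FPKM at 0 h, 2.73 at 4 h and 2.47 at 12 h. Its pseudogene Gm12338 was listed in the same table at 9.81, 11.6 and 14.2 FPKM, above Cox7c in all 3 libraries. Cox5b, with 1 copy that is not identical, was recorded at 79.7, 76.6 and 71.7 FPKM. Cycs was recorded at 1.94 FPKM (1.237 to 2.647), 1.70 (1.04 to 2.355) and 0.785 (0.3423 to 1.228), a very low level for a carrier that every respiring cell uses, and Atp5l was listed at 0 in all 3 libraries.

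The 3 genes for subunit c give the contrast within 1 protein. Their last 90 coding bases are shown because they encode part of the same membrane-spanning protein from 3 unlike gene sequences. Capitals mark the bases that differ from Atp5g3, 17 in Atp5g1 and 23 in Atp5g2. The stretches lie at chr2:73908596-73908685 for Atp5g3, chr11:96073107-96073196 for Atp5g1 and chr15:102663017-102663106 for Atp5g2, all on the minus strand of GRCm38.
Atp5g3: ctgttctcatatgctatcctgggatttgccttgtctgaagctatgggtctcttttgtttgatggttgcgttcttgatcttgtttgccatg
Atp5g1: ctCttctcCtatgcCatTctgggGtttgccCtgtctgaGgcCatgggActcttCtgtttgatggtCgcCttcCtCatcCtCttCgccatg
Atp5g2: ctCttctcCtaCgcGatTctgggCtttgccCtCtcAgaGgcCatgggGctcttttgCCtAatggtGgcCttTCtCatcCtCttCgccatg

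Atp5g3, which shares 0% of its coding windows with genes elsewhere, had the highest level of all 53 genes at 0 h, 1077 FPKM (1002 to 1153), followed by 927.9 at 4 h and 953.4 at 12 h. Atp5g1 was at 1.75, 0.702 and 2.03 FPKM. Atp5g2 was listed at 0 at 4 h, between 0.338 FPKM at 0 h and 0.196 at 12 h. Atp5g3 therefore held nearly all of the recorded subunit c signal, with the reservation given above on the other 2 genes.

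Levels were also set out by the share of windows found elsewhere. At 0 h the median level was 1.34 FPKM for the 6 genes with over 99% of windows elsewhere, 89.4 for 6 genes with 50 to 99%, 315 for 6 genes with 10 to 50% and 224 for 25 genes with under 10%. Over the 43 common subunits the share and the level had a Spearman's rho of −0.56, −0.57 and −0.55 at 0, 4 and 12 h. Without the 6 genes with over 99% of coding windows elsewhere rho was −0.30, −0.31 and −0.28 over 37 genes. The points come from the same libraries, genes are not independent replicates, and these values are a description. Without those 6 genes the relation was weak. Atp5h (67.1% of windows elsewhere), Uqcrb (72.9%), Cox7a2l (71.5%) and Atp5pb (50.1%) are the members to which the same reservation extends, with Cox5b (61.5%) and Cox6c (53.6%).

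**Figure D1:**
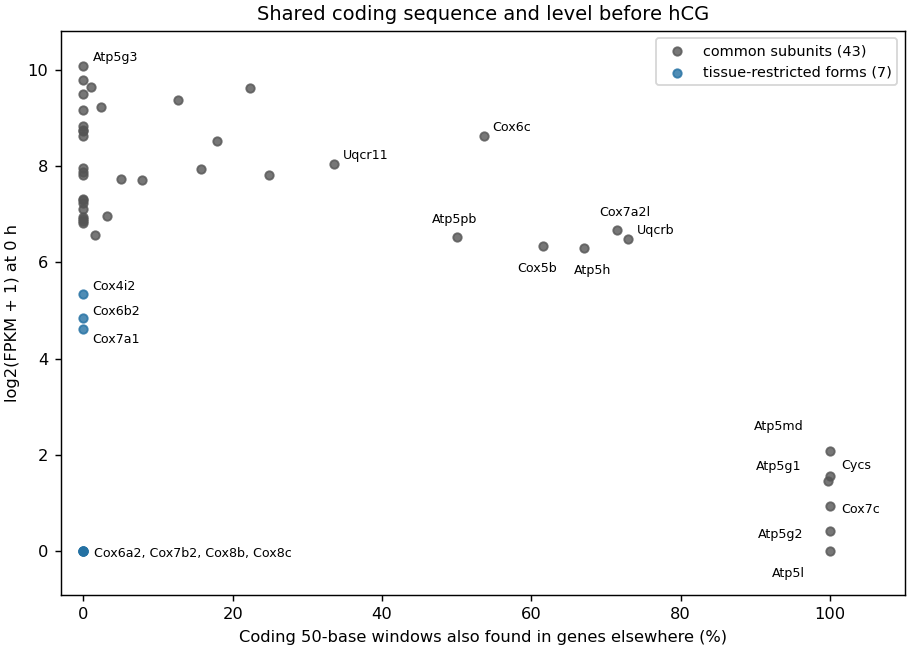
Share of each gene's coding 50-base windows that also occur in genes elsewhere (x axis, %) against its level at 0 h (y axis, log2 of FPKM + 1); grey points are 43 common subunits and blue points 7 tissue-restricted forms. The 6 genes at the right edge lie below 4 FPKM, and 4 restricted forms at the lower left are at 0 with no shared windows.

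Among the members without much shared sequence, the 4 complex II genes were the most alike in level. The flavoprotein Sdha, which holds the succinate-oxidising site, was at 138 FPKM (131.7 to 143.7) at 0 h. The iron-sulfur subunit Sdhb was at 150.0 (139.1 to 160.8), and the membrane anchors Sdhc and Sdhd were at 122 (113.2 to 131.6) and 115 (106.6 to 123.7). The highest was 1.3 times the lowest. Counting in each complex only common subunits with under 10% of windows elsewhere, the same ratio at 0 h was 3.8 in complex III (Uqcr10 at 425 FPKM over Uqcrfs1 at 112), 7.2 in complex IV (Cox4i1 at 886 over Cox7b at 123) and 11.5 in complex V (Atp5g3 over the inhibitor Atpif1 at 93.3). Subunit c is present in several copies per ATP synthase, whereas Atpif1 is a regulator that binds the enzyme when the gradient fails. Atpif1 is counted with the common subunits throughout, and the ratio of 11.5 rests on it. The next lowest complex V gene so counted was Atp5c1 at 209 FPKM. The genes so counted were 4, 6, 6 and 9 in complexes II, III, IV and V, and such a ratio tends to be larger over more genes. Exons of Gm12999 on the opposite strand overlap 31.5% of the exon bases of Atpif1.

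Complex III levels varied among subunits of like role. The small accessory subunits Uqcr10 and Uqcrq and the hinge protein Uqcrh were at 425, 394 and 369 FPKM at 0 h, whereas the accessory subunits Uqcr11 and Uqcrb were at 262 and 88.0. The core subunits Uqcrc1 and Uqcrc2, the cytochrome c1 gene Cyc1 and the Rieske iron-sulfur gene Uqcrfs1 were at 159, 119, 157 and 112. In complex V the catalytic Atp5b was at 794 FPKM, above its F1 partner Atp5a1 at 431, the central shaft Atp5c1 at 209 and Atp5d at 224. The order is a description of 1 library per time, and several of the low members, such as Atp5h at 77.4 and Atp5pb at 90.9, share sequence with copies.

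**Figure D2:**
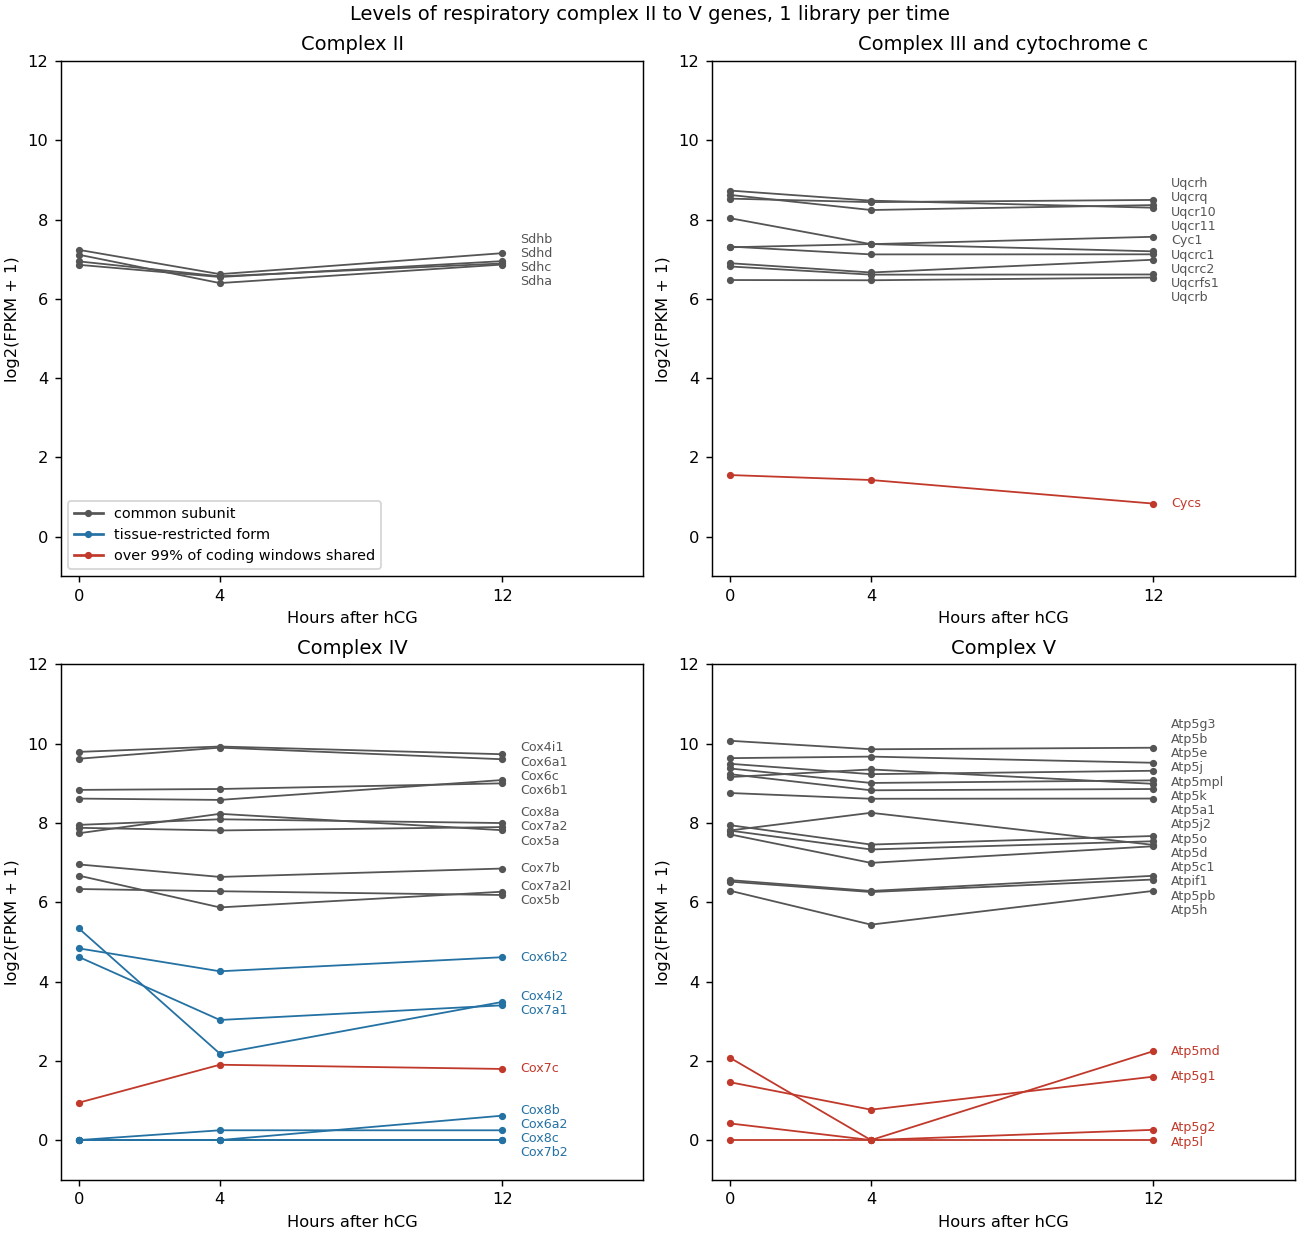
Level of each of the 50 genes of complexes II to V (y axis, log2 of FPKM + 1) at 0, 4 and 12 h after hCG (x axis), 1 library per time, lines joining the libraries for 1 gene. Grey lines are common subunits, blue lines tissue-restricted forms and red lines the 6 genes with over 99% of coding windows elsewhere, all below 5 FPKM; the 4 complex II lines are lowest at 4 h.

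Between 0 h and 4 h most of the measured members went to a lower level, by less than 2-fold. On the log2(FPKM + 1) scale the median difference of the 47 members that reached 1 FPKM at either time was −0.26, against −0.01 for all 13240 genes, and 36 of 47 members (76.6%) were lower at 4 h against 50.5% of all genes. With the trend of differences with transcript length removed, the members' median was −0.14. By the rule of size used here, at least a 2-fold difference, 0 members were higher, where 10.2% of all genes were, and 4 were lower (8.51%), where 7.03% of all genes were (17.3% in either direction). The 4 are Cox4i2, Cox7a1, Dmac2l and Atp5md. Atp5md was listed at 0 at 4 h, after 3.23 FPKM (0 to 10.04) at 0 h, so it has no fold and its intervals overlap. The deposited intervals lay apart for 24 members that were lower, where 17.4% of all genes were, and for 3 that were higher, where 22.1% were. Here and below, such shares of all genes were not matched to the members for level. Small differences can lie apart in abundant genes, as in Atp5a1, at 431 FPKM at 0 h, with a difference of −0.15.

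Complex II gave the most even picture. Sdha was at 138, 83.4 (78.78 to 88.07) and 116 (110.2 to 121.2) FPKM at 0, 4 and 12 h. Sdhb was at 150.0, 97.7 (88.95 to 106.5) and 141 (130.9 to 152.0). All 4 genes were lowest at 4 h, with intervals apart from those at both other times. Sdhc was at 122, 94.1 and 118 FPKM and Sdhd at 115, 92.9 and 123. The log2 difference between 0 and 4 h ran from −0.72 for Sdha to −0.31 for Sdhd, with a median of −0.49.

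In complex III and cytochrome c the median difference was −0.20, and 9 of 10 genes were lower at 4 h, 5 of them with intervals apart. The largest difference was in Uqcr11, a small accessory subunit, at 262 (228.9 to 294.5), 166 (132.9 to 198.4) and 189 FPKM. Both core subunits, which form the matrix-side frame, were lower at 4 h with intervals apart. Uqcrc1 was at 159, 138 and 139 FPKM and Uqcrc2 at 119, 101 and 126. Exons of Pdzd9 on the opposite strand overlap 26.6% of the exon bases of Uqcrc2, and whether the counting used strand is not known. Uqcrb, a small accessory subunit, differed least, at 88.0, 87.7 and 91.9 FPKM. Cyc1 was the one gene of the 10 with a higher value at 4 h, at 157, 166 and 146 FPKM, and its intervals at 0 and 4 h overlap.

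Complex IV was divided. The median difference of its 14 measured genes was −0.04, with 8 lower and 6 higher, and this sign turned to 0.12 when the trend of differences with transcript length was removed. Cox5a, a matrix-side subunit, was at 213 (195.5 to 230.0), 300 (279.0 to 320.0) and 225 FPKM, highest at 4 h with intervals apart. Cox6a1, the common form of subunit 6a, was also highest at 4 h, at 786 (745.4 to 826.5), 955.0 (910.3 to 999.8) and 779 FPKM. Both genes stand apart from the complex II pattern in these libraries, although Cox6a1 was no longer higher (−0.03) when the libraries were rescaled to a common sum. Cox5a stayed higher by that scale, at 0.18. A predicted gene on the opposite strand, Gm26631, overlaps 41.7% of the exon bases of Cox5a, and the sources used here do not say whether the counting used strand. Cox4i1, the common form of subunit 4 and the most abundant complex IV member, was at 886, 974 and 851 FPKM with overlapping intervals between 0 and 4 h; Emc8 on the opposite strand overlaps 20.1% of its exon bases. Cox6b1 differed least, at 456, 463 and 511. The lower side held Cox7a2l, a paralogue of subunit 7a, at 101 (91.99 to 109.9), 57.5 (48.54 to 66.44) and 76.0 FPKM. It also held Cox7b at 123, 98.7 and 114.

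Complex V was mostly lower at 4 h, with a median difference of −0.32 and 13 of 16 genes lower. In the stator, the stalk that holds the catalytic head still, all 4 genes were lower with intervals apart, with a median of −0.42. All 4 share coding windows with copies, from 12.7% in Atp5j to 67.1% in Atp5h. Leaving out members that share 10% or more removes the whole stator, and the complex V median was then −0.22. The stator gene Atp5h was at 77.4 (60.93 to 93.78), 42.3 (31.93 to 52.61) and 77.1 FPKM, and OSCP (Atp5o), the cap of the stalk, at 223, 160 and 185. The membrane subunit Atp5j2 was at 246, 175 and 203 FPKM. The F1 head gave no common direction. Atp5c1, the rotating shaft, was at 209 (196.0 to 221.5), 126 (116.4 to 136.4) and 169 FPKM, whereas Atp5d, which sits at the foot of the same shaft, was at 224 (199.8 to 247.2), 305 (278.7 to 331.1) and 173. The catalytic Atp5b was nearly level at 794, 816 and 733 FPKM. Levels of 2 genes whose products turn together in the enzyme thus moved in opposite directions between these libraries, and for both genes the intervals lay apart.

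**Figure D3:**
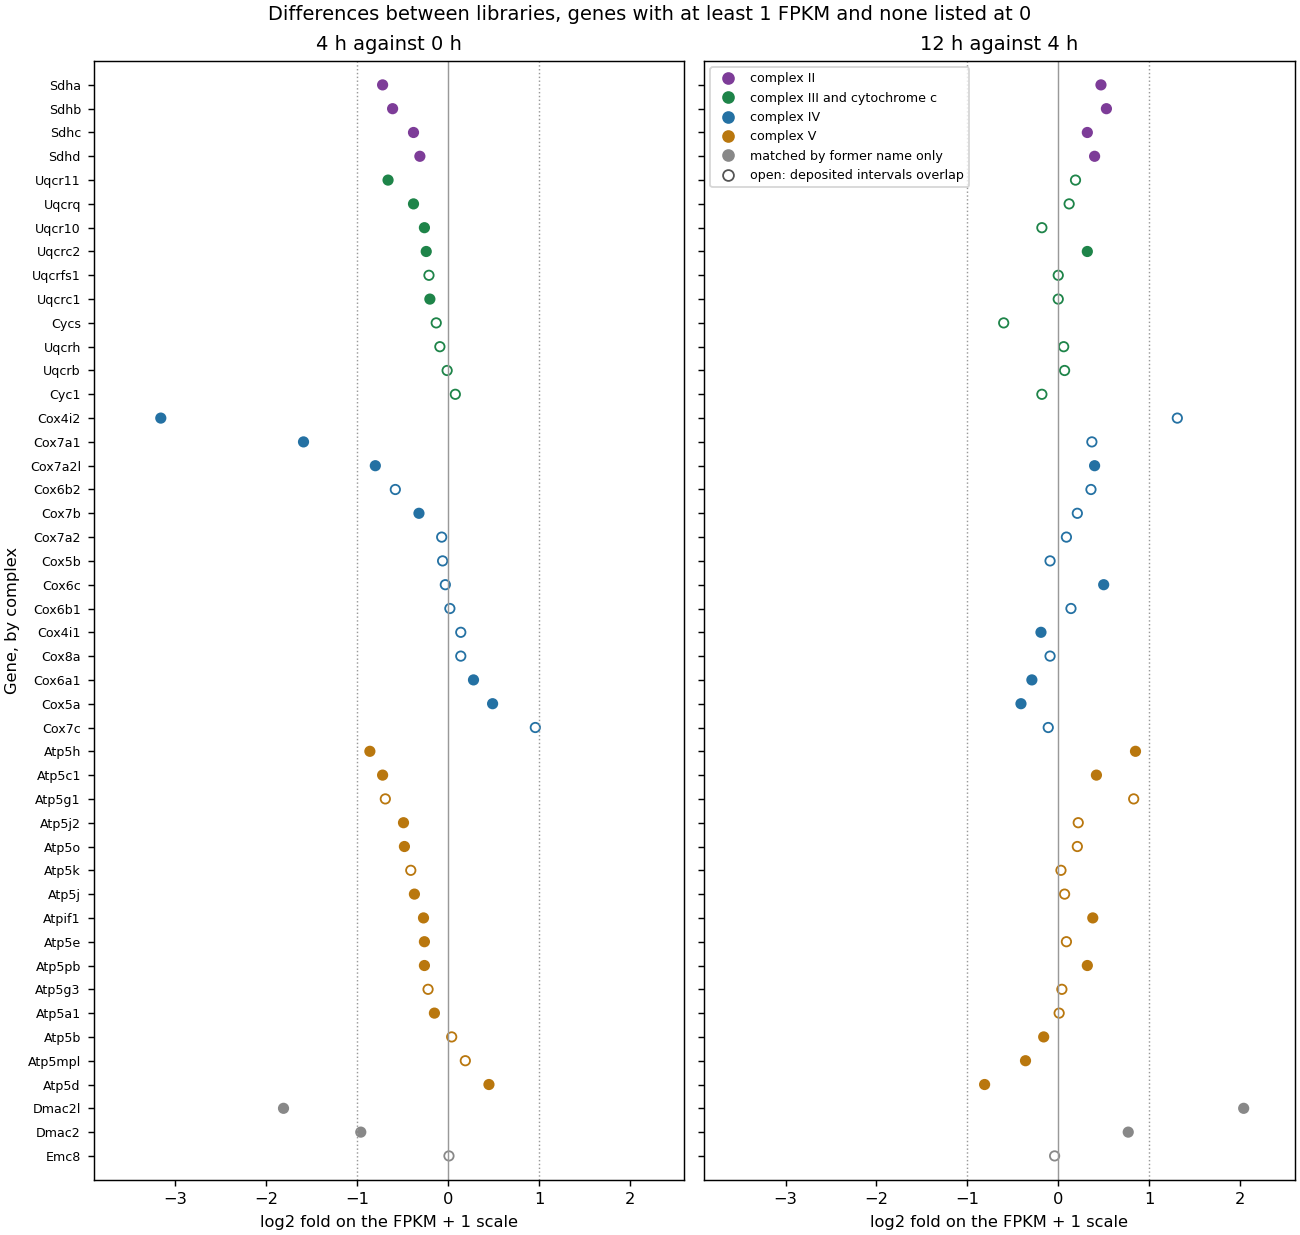
Log2 difference on the FPKM + 1 scale (x axis) at 4 h against 0 h (left) and 12 h against 4 h (right) for the 46 genes with at least 1 FPKM in the compared libraries and none listed at 0, grouped by complex; filled points have deposited intervals that lie apart, and dotted lines mark 2-fold. All 4 complex II points lie left of 0 in the left panel and right of it in the right panel, while Atp5d and Cox5a lie on the opposite sides.

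The difference at 4 h touches several measures of the libraries that moved with it. The summed FPKM of all genes was highest at 4 h, and with the libraries rescaled to a common sum the median of all genes was −0.29 and that of the members −0.57. Differences also varied with transcript length: over all genes the median at 4 h against 0 h was 0.48 below 400 nt, −0.21 from 400 to 700 nt, −0.19 from 700 to 1000 nt, −0.10 from 1000 to 2000 nt and 0.04 above. In the same order the members' medians were −1.0 (4 genes), −0.07 (15 genes), −0.29 (8 genes), −0.31 (14 genes) and −0.26 (6 genes). The 15 members from 400 to 700 nt, the most numerous class, thus lay above all genes of their length, and the other classes below. All 7 oocyte markers were at 1 FPKM or more in every library, and their sum of 193, 146 and 271 FPKM was also lowest at 4 h. The 10 granulosa markers summed to 11100, 9740 and 6610 FPKM, a sum carried by Inha at 6986, 7163 and 3742. Of these markers Foxl2, Fshr, Inhbb, Cyp19a1 and Hsd17b1 were lower at 4 h against 0 h and higher again at 12 h against 4 h by the 2-fold rule, and Cyp11a1 was higher at 4 h. The part of library composition, length, granulosa cell state and other cells in the difference was not tested. In bulk RNA, fewer cells of a type and less RNA per cell cannot be told apart.

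From 4 h to 12 h most members had the opposite difference, and since the 4 h library enters both comparisons, they are not independent. The median difference was 0.12, against 0.01 for all 13242 genes, and it was 0 with the length trend removed. At 12 h 34 of 47 members were higher than at 4 h, as were 6713 of the 13242 genes. By the 2-fold rule 3 were higher (Cox4i2, Dmac2l and Atp5md), where 4.83% of all genes were, and 0 were lower, where 7.88% were (12.7% in either direction). Intervals lay apart for 13 higher members, where 14.1% of all genes were, and for 6 lower, where 20.5% were. The 13 included all 4 complex II genes, Atp5c1 and Atp5h. The 6 lower ones were Cox4i1, Cox5a, Cox6a1, Atp5b, Atp5d and Atp5mpl, a small membrane subunit at 570.2, 652 and 507 FPKM. Atp5d had the largest of these differences, −0.81. With the libraries rescaled to a common sum, Atp5d stayed lower at −0.42 and Cox5a was at −0.02. Cox4i1, Cox6a1, Atp5b and Atp5mpl were then no longer lower, at 0.20, 0.10, 0.24 and 0.03. That rescaling moved the median of all genes to 0.37.

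Complex medians at 12 h against 4 h were 0.43 for complex II, 0.03 for complex III with cytochrome c, 0.11 for complex IV and 0.15 for complex V. With the length trend removed they were 0.34, −0.10, −0.08 and 0 in the same order, so that only complex II kept a positive median. Cox6c of complex IV followed neither course, at 391 (361.3 to 421.1), 382 (352.7 to 411.7) and 542 (506.3 to 576.7) FPKM, highest at 12 h. Its coding windows are shared in part with Cox6c2, annotated as a pseudogene.

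In all, 33 of 47 members (70.2%) had their lowest value at 4 h, against 41.6% of 13500 genes with at least 1 FPKM in any library. This held for 4 of 4 genes in complex II, 7 of 10 in complex III with cytochrome c, 7 of 14 in complex IV and 13 of 16 in complex V. The same count was 38 of 46 (82.6%) for complex I subunit and assembly genes of the Nduf family, which also feed electrons to ubiquinone, and 49 of 77 (63.6%) for mitochondrial ribosomal protein genes. The Nduf genes had median differences of −0.44 and then 0.31. The members of complexes II to V were thus not alone among mitochondrial genes in this shape, and no test of a difference between these lists was made.

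At 12 h most members were close to their 0 h level. The median difference at 12 h against 0 h was −0.12, against −0.02 for all 13026 genes. By the 2-fold rule 0 members were higher, where 3.16% of all genes were, and 2 were lower, Cox4i2 and Cox7a1, where 2.55% were (5.7% in either direction). Intervals lay apart for 13 lower members, where 8.61% of all genes were, and for 1 higher member, Cox6c, where 8.3% were. The lower members included Uqcr10, at 425, 356 and 314 FPKM, and all F1 genes except Atp5e. Complex medians were −0.07, −0.20, −0.04 and −0.17 for complexes II, III with cytochrome c, IV and V. Complexes II and IV were at 0.02 and 0.05 when the libraries were rescaled to a common sum.

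Among the complex IV genes the largest differences at 4 h against 0 h were in tissue-restricted forms. Vertebrates carry alternative genes for several of these subunits, each typical of certain organs, such as lung, heart and skeletal muscle, or testis. Cox4i2 (chr2:152753916-152765039) encodes the form of subunit 4 known from lung and from cells at low oxygen. It was at 39.6 FPKM (31.95 to 47.2) at 0 h, 3.53 (0 to 7.09) at 4 h and 10.2 (5.932 to 14.47) at 12 h. Its level at 0 h was above both others with intervals apart, while those at 4 and 12 h overlapped. The ratio of the 0 h to the 4 h level was 11.2, and on the log2(FPKM + 1) scale the differences were −3.16 at 4 h and −1.86 at 12 h against 0 h.

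Cox7a1 (chr7:30184171-30186030), the heart and muscle form of subunit 7a, was at 23.6 FPKM (13.36 to 33.89), 7.17 (1.476 to 12.86) and 9.55 (3.191 to 15.92). Its differences from 0 h were −1.59 at 4 h, with intervals apart, and −1.22 at 12 h, with intervals that overlap. Cox6b2, the testis form of subunit 6b, was at 27.6 FPKM (17.67 to 37.5), 18.1 (9.053 to 27.23) and 23.5 (15.05 to 31.92), with overlapping intervals throughout. None of the 3 genes shares coding windows with a gene elsewhere.

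The common counterparts stayed near their level. Cox7a2, the common form of subunit 7a, was at 234, 224 and 237 FPKM, and Cox6b1, that of subunit 6b, was given above. Cox4i2 accounted for 4.27% of the summed level of the 2 subunit 4 genes at 0 h, 0.361% at 4 h and 1.18% at 12 h. For Cox7a1 the share of its pair was 9.16%, 3.11% and 3.87%, and for Cox6b2 it was 5.71%, 3.77% and 4.4%. The common form held most of the signal of each pair at all 3 times.

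**Figure D4:**
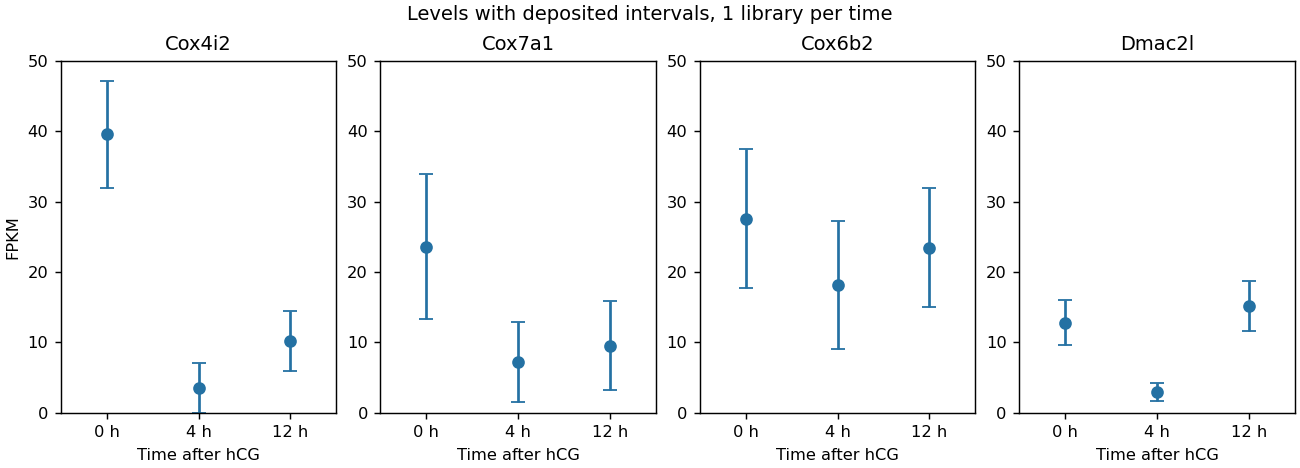
Level in FPKM (y axis) of Cox4i2, Cox7a1, Cox6b2 and Dmac2l at 0, 4 and 12 h after hCG (x axis), 1 library per time; bars are the deposited intervals, which do not describe the spread between mice. Cox4i2 and Cox7a1 are highest at 0 h, Dmac2l is lowest at 4 h, and the Cox6b2 bars overlap.

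The other 4 restricted forms were at or near 0. Cox6a2 and Cox8b (heart and muscle) were at 0.187 FPKM or less and at 0.533 or less, and each was listed at 0 at 0 h. Cox7b2 and Cox8c (testis) were listed at 0 in all 3 libraries. None of them shares coding windows with other genes. The 4 smooth muscle markers examined, Acta2, Myh11, Tagln and Cnn1, were at 1 FPKM or more in every library, with sums of 112, 170 and 167 FPKM. The marker Tagln, at 45.0, 101.5 and 79.8 FPKM, made most of the difference, and Cnn1 was at 3.28, 6.06 and 6.50. Both were lowest at 0 h. Acta2 (59.8, 59.1 and 75.4) and Myh11 (4.19, 3.64 and 5.26) were lowest at 4 h, by −0.02 and −0.16 against 0 h, and highest at 12 h. The 5 endothelial markers summed to 13.4, 33.2 and 13.4 FPKM. The part of smooth muscle, endothelium or other vessel cells in the levels of the restricted forms, Cox4i2 and Cox7a1 among them, was not tested.

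Of the 3 genes matched by a former symbol, Dmac2l was at 12.8 FPKM (9.61 to 16.02), 2.94 (1.664 to 4.214) and 15.2 (11.55 to 18.75), a difference of −1.81 and then 2.04 with intervals apart both times. Dmac2, which takes part in complex I assembly, was at 15.9, 7.67 and 13.8 FPKM, just short of 2-fold on the scale used. Emc8, of the endoplasmic reticulum membrane complex, was at 11.9, 12.0 and 11.6. Without these 3 genes, 3 members were lower at 4 h against 0 h and 2 higher at 12 h against 4 h.

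Promoters were examined for the letters of 3 motifs, 2 of factors known to act on respiratory genes and 1 of RBPJ, the factor of the Notch pathway, set beside them. RefSeq sequences of the 250 bases before the start site (GRCm38.p6) were at hand for 40 of the 53 genes. The core of the nuclear respiratory factor 1 motif, GCGCATGC on either strand, was present in 6 of these genes (15.0%), against 2.56% of all 27025 genes with such a sequence. The core of the ETS motif, CCGGAAG, bound by the GA-binding protein, was present in 9 genes (22.5%) against 7.83% of all genes. The core of the RBPJ motif, TGGGAA, was present in 25.0% against 24.1%. None of these motifs lies within another. All genes here were not matched to the members for level or for base composition of the promoter. A match is a description of letters and not of a bound site.

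The 6 matches to the nuclear respiratory factor 1 core are shown with 10 bases on either side and the matching letters in capitals; where matches on both strands overlap, the joined stretch is in capitals. They begin 42 bases before the start site in Atp5g2 (chr15:102671070-102671099, minus strand), 50 in Atp5k (chr5:108434430-108434459, minus), 240 in Atp5l (chr9:44920965-44920992, minus), 162 in Cox6a1 (chr5:115349101-115349130, minus), 60 in Cycs (chr6:50566612-50566639, minus) and 54 in Sdhb (chr4:140961207-140961234, plus).
Sdhb: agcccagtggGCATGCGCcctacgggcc
Cycs: atgctagctcGCATGCGCgcgcacaaac
Cox6a1: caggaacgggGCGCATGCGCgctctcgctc
Atp5k: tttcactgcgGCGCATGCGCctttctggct
Atp5g2: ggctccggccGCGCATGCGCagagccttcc
Atp5l: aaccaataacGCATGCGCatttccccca

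Among these 6 genes Sdhb was lowest at 4 h and Cox6a1 highest at 4 h. With the libraries rescaled to a common sum, Sdhb was at −0.92 and Cox6a1 at −0.03 at 4 h against 0 h. Atp5k, a membrane subunit of ATP synthase, was at 600.4, 452 and 463 FPKM with overlapping intervals. Cycs, Atp5g2 and Atp5l belong to the genes near 0 whose coding windows were all found elsewhere. The factor's own gene, Nrf1, was at 14.0, 18.1 and 12.7 FPKM, and Gabpa, a subunit of the GA-binding protein, at 17.5, 20.7 and 17.3. Exons of Gabpa overlap 22.5% of the exon bases of the stator gene Atp5j, read from the opposite strand, and with strand not given the reads of the overlap cannot be assigned. Atp5j was at 663, 514 and 538 FPKM.

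Genes that build or serve the complexes were read from lists. Of 10 assembly factors of complexes II and III, 0 were higher and 2 lower at 4 h against 0 h (all genes 10.2% and 7.03%), with a median difference of −0.50. These were Sdhaf4, which helps to mature the flavoprotein, at 40.3, 17.7 and 32.3 FPKM, and Bcs1l, which inserts the Rieske protein, at 11.4, 4.90 and 9.99. Both were lowest in the 4 h library.

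Of 23 assembly factors of complex IV, 1 was higher and 4 lower, with a median of −0.39. In either direction this is 21.7% of the list, near the 17.3% of all genes. Sco2, a copper carrier, was at 3.25, 11.0 and 9.49 FPKM and was the one that was higher, at both 4 and 12 h against 0 h. Cmc1 was at 26.0, 6.99 and 16.5, Cox16 at 44.9, 13.5 and 30.8, and Cmc2 at 17.9, 7.72 and 15.5. Pet117 was at 6.97 FPKM at 0 h and listed at 0 at both later times. At 12 h against 4 h, Cox16, Cmc1 and Coa4 (3.46 and 8.59 FPKM) were higher and 0 were lower (all genes 4.83% and 7.88%). Among the common subunits of complex IV themselves 0 were past 2-fold on the log2(FPKM + 1) scale in any comparison; Cox7c, near 0, had a plain ratio of 2.97 at 4 h against 0 h with overlapping intervals.

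The 3 complex V assembly factors (Atpaf1, Atpaf2 and Tmem70) and the 14 genes of the tricarboxylic acid cycle held 0 genes past 2-fold in any comparison. Of all genes 17.3% were past it at 4 h against 0 h, 12.7% at 12 h against 4 h and 5.7% at 12 h against 0 h. The medians of the 2 lists were −0.23 and −0.07 at 4 h against 0 h. The complex II genes, which belong to that cycle as well, had −0.49. Among 16 regulators of mitochondrial gene expression, 14 were measured at 4 h against 0 h, with a median of 0.20. Of these, 1 was past 2-fold (7.14%), where 17.3% of all genes were. It was Tfb1m, which modifies mitochondrial ribosomal RNA, at 10.1, 2.97 and 10.4 FPKM. Ppargc1a and Ppargc1b, coactivators of respiratory gene programmes, were under 1 FPKM in every library.

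Of the carriers that supply ATP synthase, the phosphate carrier Slc25a3 was at 483, 1013 and 431 FPKM. Of 8 transport genes 7 were measured at 4 h against 0 h, and Slc25a3 alone was past 2-fold. This is 14.3% of the measured list, near the 17.3% of all genes. The ADP-ATP carriers Slc25a4 and Slc25a5 were at 306, 257 and 255 FPKM and at 166, 210.4 and 129. The phosphate carrier was thus highest in the library in which most ATP synthase genes were lowest, and a test of this contrast was not possible with 1 library per time.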

How the data were processed

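Granulosa cell RNA was sequenced at 3 times, 1 library each. The deposited values are FPKM of RefSeq isoforms with bounds and the standard deviation of each estimate, all on the FPKM scale as deposited by the authors. CASAVA 1.8, TopHat2 2.1.1, Cufflinks 2.2.1 and mm10 stand in the submitters' processing notes with no role or order given. Of 34535 isoforms, 34169 were matched to symbols by RefSeq and 193 by GENCODE M21, and 173 were left out. The 12 failed estimates touch 0 members. Isoform FPKM were summed per gene, and their bounds joined as a root of summed squares, which assumes independent isoform estimates. Of the 53 members, 44 have 1 isoform.

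Differences are log2(FPKM + 1), so folds of low genes are understated. A gene was called at 2-fold where the higher library held 1 FPKM or more, a rule of size. Depth was read from low values of 1-isoform genes: 70.8%, 70.0% and 71.8% lay within 0.1 of whole fragments, where chance gives 20%, and 1 fragment on 1 kb is worth 0.094, 0.105 and 0.108 FPKM. Shared windows of coding sequence were found with BLAST 2.17.0 and exact matching in GENCODE M21 transcripts. Transcript parts outside the coding sequence and unannotated copies were not searched. Calls were tested on simulated data.

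Members and lists were chosen with earlier results of these data known. Named genes are members past 2-fold, the extremes of each complex, members under 1 FPKM, restricted forms with counterparts, subunit c genes and up to 4 list genes past 2-fold; other names were chosen after seeing their values. Theca (201, 239 and 206 FPKM), leukocyte (54.2, 83.2 and 89.6) and erythroid (540.0, 445 and 377) marker sums were also computed. Alternatives were other pseudocounts, filters, scalings, thresholds, the main isoform and leaving out members.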

Additional observations from a re-analysis of the deposited data

How the results depend on the processing

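Of 138 alternative values, 5 changed sign and 30 moved further than the limit set; the other 103 were counts within 1.5 times those reported, or medians that moved by less than the typical deposited interval of a member's difference, some of them to 0. At 4 h against 0 h, 1 member was higher (0 as reported) with a pseudocount of 0.1 FPKM, with the length trend removed and at 1.5-fold, and 3 by intervals that lie apart; 9 were lower (4 as reported) with the libraries rescaled to a common sum, 12 at 1.5-fold and 24 by intervals. The common sum moved the median of all genes by −0.29, with 7.6% higher and 13.1% lower, and the members' median to −0.57; it gave −0.80, −0.51, −0.35 and −0.63 for complexes II, III with cytochrome c, IV and V. Removing the length trend gave −0.14 for the members and −0.39, −0.12, 0.12 and −0.19 for the complexes in that order.

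At 12 h against 4 h, 1 member was lower with a pseudocount of 0.1 FPKM and with the length trend removed, 2 at 1.5-fold and 6 by intervals; 1 was higher with a pseudocount of 5 FPKM, 6 with the common sum and at 1.5-fold, and 13 by intervals. The common sum moved the median of all genes to 0.37 (12.6% higher, 5.23% lower) and the members' to 0.52, with 0.82, 0.42, 0.51 and 0.54 for the complexes in the same order. Without the length trend the members and complex V were at 0, and complexes III and IV at −0.10 and −0.08. At 12 h against 0 h, 1 member was higher with a pseudocount of 0.1 FPKM, at 1.5-fold and by intervals. With a pseudocount of 5 FPKM 1 was lower, and 13 by intervals. Of all genes, 5.6% were higher with a pseudocount of 0.1 FPKM and 8.79% at 1.5-fold, and 1.11% were lower with a pseudocount of 5 FPKM. With the common sum the members were at −0.03 and complexes II and IV at 0.02 and 0.05.

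Leaving out the 3 genes matched by name only was chosen after seeing the data. No paired analysis was possible because each time has 1 library, and for the same reason no library was left out. Depth limits the 6 genes under 1 FPKM most, and intervals cover estimation error only.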
